A study of Mus musculus with 71 samples.

Results

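Genes that mark microglia, 33 of the 37681 genes in the tables, were followed through the study. They were chosen by name as known microglia genes, with earlier results of these data known. RNA-seq was measured in adult wild type C57BL/6 mice (C57BL/6J in the study's methods) that had self-administered (SA) cocaine or saline and were then kept abstinent for 1 or 28 days. The methods name male and female mice, but all 71 libraries had the male pattern of Xist near 0 and the Y chromosome gene Ddx3y expressed. Saline mice also went through food training, catheter surgery and SA sessions, so they are not untouched controls. Micro-punches of the nucleus accumbens (NAc), ventral tegmental area (VTA) and prefrontal cortex (PFC) gave 12 groups of 6 libraries each, except saline VTA at 28 days, which had 5, for 71 libraries in all. The labels do not say that each library is a separate mouse, so p-values measure the spread between these libraries. A punch is bulk tissue with every cell type in it, so fewer microglia and less RNA per microglial cell cannot be told apart.

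Microglia are the resident macrophages of the brain. They survive on signals through the CSF1 receptor, survey the tissue through purinergic receptors and the fractalkine receptor, and carry the adaptor Tyrobp, which passes on the signal of receptors such as Trem2. They are the main source of the complement protein C1q in the brain. Their identity rests on transcription factors that include PU.1, Irf8 and Sall1.

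All 33 genes were detected in each of the 6 tables and passed the filter on low values in each. Levels are given as RPKM, reads per kilobase of gene scaled to the total reads of the library, which can be set beside each other between genes. Ctss, a lysosomal cysteine protease, and C1qb were the most abundant members in saline VTA at 1 day, with 78.0 ± 8.51 and 48.7 ± 10.0 RPKM (SD, n = 6). Ptprc, the leukocyte phosphatase CD45, P2ry6 and Blnk were the least abundant there, with 0.955 ± 0.194, 1.08 ± 0.184 and 0.630 ± 0.0465 RPKM. The libraries held between 20971967 and 49700932 reads on genes. In the VTA at 1 day a member had between 28 reads (P2ry6) and 4159 reads (Csf1r) in a library.

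PU.1 is known to bind sequences of the type GAGGAAGT, and these letters were searched in the stretch from 250 bases before to 50 bases after the annotated start of each gene. Of the 33 members, 26 matched a RefSeq promoter entry on build GRCm38.p6. The letters, on either strand, were in the window of 5 of these 26 members (19.2%), C1qc, Ctss, Cd53, Hpgds and Inpp5d, and of 997 of 27025 genes in all (3.69%). The composite ETS and IRF motif, the type of site that PU.1 and Irf8 share, was searched in the same way and was in the window of 1 of 26 members (3.85%), Cd68, and of 853 genes in all (3.16%). A match describes the letters alone, and so does the lack of one. The windows of Ctss and Inpp5d, in which the motif begins at -2 and -20 relative to the start, are printed next, with the motif in capitals. The window of P2ry13, the purinergic receptor that fell in the VTA at 1 day, is printed beside them and holds neither.
Ctss, chr3:95526536-95526835, plus strand, motif on the reverse strand: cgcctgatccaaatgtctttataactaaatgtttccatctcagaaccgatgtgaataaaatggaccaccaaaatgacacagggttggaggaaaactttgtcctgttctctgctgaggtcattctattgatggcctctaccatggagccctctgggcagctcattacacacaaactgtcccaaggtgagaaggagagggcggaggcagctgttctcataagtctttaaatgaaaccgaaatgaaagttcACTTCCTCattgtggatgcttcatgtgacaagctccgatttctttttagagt
Inpp5d, chr1:87620062-87620361, plus strand, motif on the forward strand: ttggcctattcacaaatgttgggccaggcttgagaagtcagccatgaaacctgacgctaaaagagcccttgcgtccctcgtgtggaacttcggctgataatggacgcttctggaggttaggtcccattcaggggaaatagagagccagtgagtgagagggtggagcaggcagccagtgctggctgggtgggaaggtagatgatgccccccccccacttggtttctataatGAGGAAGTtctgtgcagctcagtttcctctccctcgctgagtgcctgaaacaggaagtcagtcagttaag
P2ry13, chr3:59210833-59211132, minus strand: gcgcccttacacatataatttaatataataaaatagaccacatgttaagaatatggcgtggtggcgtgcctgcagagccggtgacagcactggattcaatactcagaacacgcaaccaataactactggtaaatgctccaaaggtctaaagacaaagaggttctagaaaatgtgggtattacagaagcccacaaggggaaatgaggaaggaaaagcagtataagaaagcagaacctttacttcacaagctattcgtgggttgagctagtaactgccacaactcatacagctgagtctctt

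The comparison of cocaine with saline asked in each region and at each time point whether self-administration left a change after abstinence. The microglia genes had their largest median difference in the VTA at 1 day, where 32 of 33 had a lower mean log2 level after cocaine than after saline. Blnk, an adaptor of immune receptor signalling, and P2ry13 fell, at an adjusted p under 0.05 by limma with Benjamini-Hochberg adjustment over all genes tested. These 2 of 33 members stand beside 28 of all 15042 genes (0.186%) called in either direction and 4 (0.0266%) called lower. Blnk passed the filter on low values, a mean of 0.5 RPKM, through its saline libraries. Its mean was 0.630 RPKM after saline and 0.434 after cocaine. With no filter 0 members were called, beside 0 genes called lower. At an unadjusted p under 0.05, 21 members were lower and 0 higher, beside 646 genes (4.29%) lower and 1677 (11.1%) higher in the whole table. At an adjusted p under 0.25, 16 members were lower and 0 higher, beside 2.32% of genes lower and 6.12% higher. The median log2 fold change was -0.39 over the members and 0.03 over all genes tested, of which 41.1% were below 0.

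**Figure D1:**
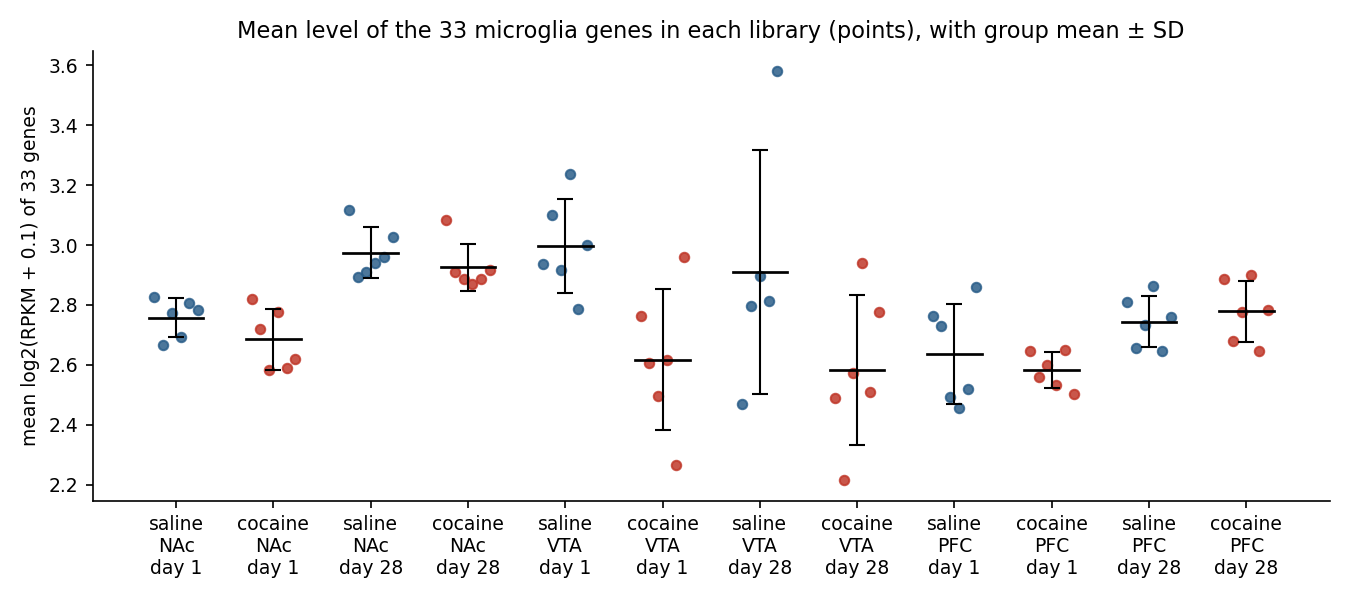
Mean log2(RPKM + 0.1) of the 33 microglia genes (vertical axis) in each library (points) of the 12 groups (horizontal axis), with the mean and SD of each group as bars. In the VTA at 1 day the cocaine libraries sit between 2.26 and 2.96 and the saline libraries between 2.79 and 3.24, and in the NAc and PFC the cocaine and saline libraries overlap.

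Averaged over the 33 genes on the log2 scale, the level in the VTA at 1 day was 2.62 ± 0.236 after cocaine and 3.00 ± 0.156 after saline (SD, n = 6 each). The groups overlapped through cocaine library 6, at 2.96. Cocaine library 5 was the lowest, at 2.26, and 22 of the 33 members had their lowest level of the 12 libraries there. Saline library 4 was the highest, at 3.24, and held the highest level of 20 members.

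Among the receptors through which microglia sense their surroundings, 5 of 5 had a negative log2 fold change, with a median of -0.63. An unadjusted p under 0.05 was found for 4, beside 4.29% of all genes lower. P2ry13, a receptor for ADP, ranged from 3.58 to 5.77 RPKM after cocaine (median 4.69) and from 5.74 to 8.44 RPKM after saline (median 7.55). The groups touched only where the lowest saline library met the highest cocaine library. P2ry13 fell by 0.67 ± 0.11 on the log2 scale (SE), at an adjusted p of 0.0479 (limma, n = 6 each). The gene lies on mm9 chromosome 3 from 59011818 to 59014804 on the minus strand, inside Med12l, which is on the plus strand. The strand used in counting is not given in the sources used here, so reads of the 2 genes cannot be told apart. The same limit holds for Csf1r, Gpr34 and Hpgds, which overlap Hmgxb3, Cask and Gm17147 on the opposite strand. The log2 fold change of Med12l itself was -0.03 ± 0.09 (SE).

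P2ry12, the ADP receptor that guides microglial processes to injured cells, also lies inside Med12l. It ranged from 6.88 to 12.4 RPKM after cocaine (median 9.24) and from 12.2 to 16.9 after saline (median 14.4), with an overlap of 1 cocaine library. Its log2 fold change was -0.61 ± 0.14 (SE) and did not pass the test (adjusted p = 0.106, limma).

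Cx3cr1, the receptor for the neuronal chemokine fractalkine, ranged from 11.8 to 19.1 RPKM after cocaine (median 14.0) and from 20.1 to 27.4 after saline (median 21.8). All 6 cocaine libraries were below all 6 saline libraries. The log2 fold change was -0.63 ± 0.12 (SE) at an adjusted p of 0.0661 (limma). Gpr34, a receptor for lysophosphatidylserine, overlapped more, with 2.27 to 5.37 RPKM after cocaine and 3.81 to 8.23 after saline, and a log2 fold change of -0.65 ± 0.23 (SE, adjusted p = 0.234, limma). P2ry6, the UDP receptor linked to phagocytosis, had a log2 fold change of -0.16 ± 0.26 (SE).

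**Figure D2:**
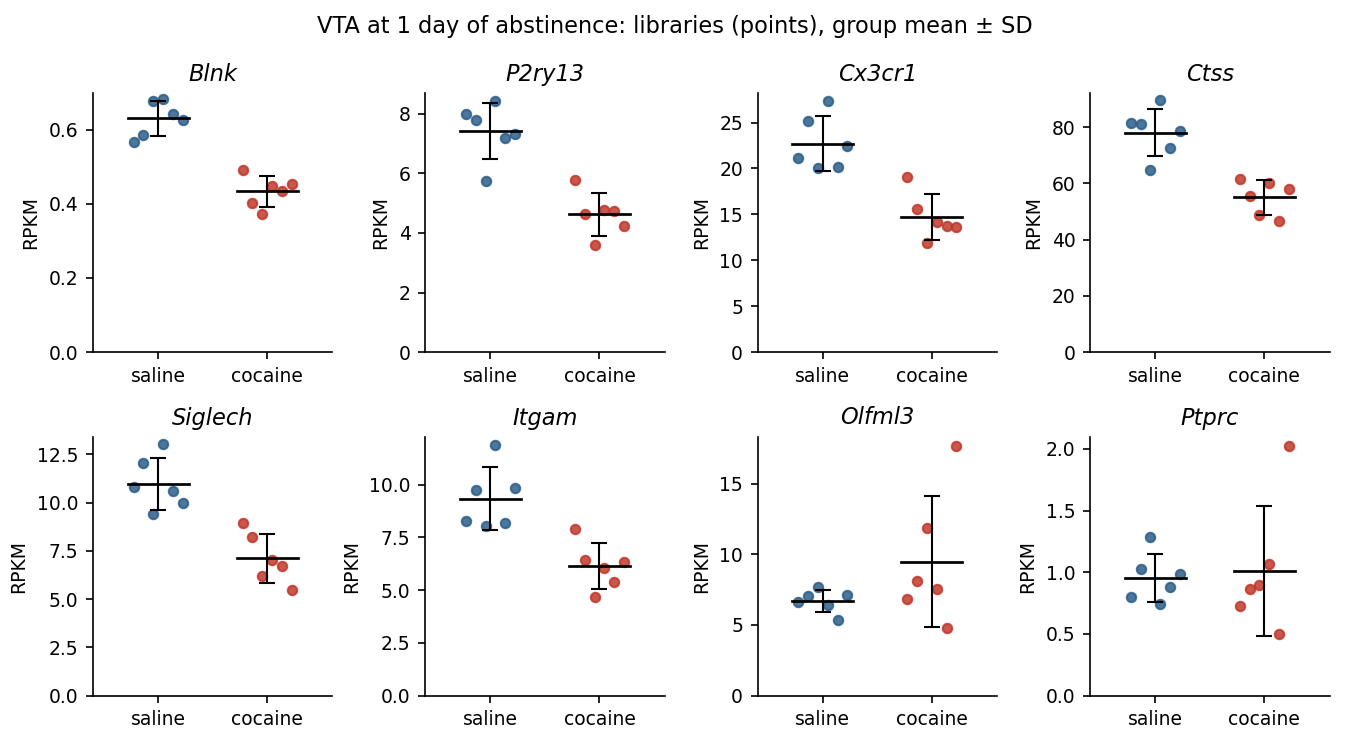
RPKM (vertical axes, from 0) of 8 members in the 6 saline and 6 cocaine libraries of the VTA at 1 day (points), with group mean and SD. Blnk, Cx3cr1, Ctss, Siglech and Itgam do not overlap between groups, P2ry13 overlaps in 1 library, and Olfml3 and Ptprc overlap widely, with cocaine library 6 the highest.

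Among the leukocyte signalling and surface genes, Blnk ranged from 0.373 to 0.491 RPKM after cocaine (median 0.441) and from 0.568 to 0.682 after saline (median 0.634). The groups did not overlap. Blnk fell by 0.45 ± 0.07 on the log2(RPKM + 0.1) scale (SE) at an adjusted p of 0.0301 (limma). This level is low, 40 to 83 reads per library, and close to the minimum mean of 0.5 RPKM for testing. The mean was 0.630 RPKM after saline and 0.434 after cocaine, so the cocaine group alone lay below that minimum. With no filter Blnk was not called, and 0 genes were called lower. The gene lies on mm9 chromosome 19 from 41003417 to 41069025, with no other annotated gene in its span.

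Of the 8 genes of this group, 8 had a negative log2 fold change. An unadjusted p under 0.05 was found for 6, beside 4.29% of all genes lower. Selplg, the P-selectin ligand PSGL-1, was at -0.58 ± 0.15 (SE, adjusted p = 0.128, limma). Ly86, the MD-1 protein that pairs with RP105, did not overlap between groups, with 11.7 to 15.7 RPKM after cocaine and 16.5 to 19.5 after saline. For Ptprc the log2 fold change was -0.02 ± 0.25 (SE). Its highest value, 2.02 RPKM, was in cocaine library 6, and the other 5 cocaine libraries ranged from 0.504 to 1.06.

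Ctss ranged from 46.6 to 61.5 RPKM after cocaine (median 56.7) and from 64.9 to 89.8 after saline (median 79.9), with no overlap. Its log2 fold change was -0.50 ± 0.09 (SE, adjusted p = 0.0704, limma). Cd68, a lysosomal glycoprotein of phagocytes, was at -0.13 ± 0.23. Whether these lysosomal members differ in their response was not tested.

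Siglech, a sialic acid binding lectin that signals through an ITAM adaptor, ranged from 5.50 to 8.94 RPKM after cocaine (median 6.88) and from 9.40 to 13.03 after saline (median 10.7). The groups did not overlap, and the log2 fold change was -0.63 ± 0.12 (SE, adjusted p = 0.0778, limma). Over the 6 genes of ITAM adaptors and their receptors the log2 fold changes ran from -0.63 (Siglech) to -0.15 (Fcgr3, an Fc receptor for IgG), with a median of -0.28. Trem2 was at -0.51 ± 0.16 (SE, adjusted p = 0.198, limma), and the adaptors Tyrobp and Fcer1g were at -0.33 ± 0.18 and -0.22 ± 0.14.

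Itgam, the integrin subunit CD11b of complement receptor 3, ranged from 4.70 to 7.90 RPKM after cocaine (median 6.19) and from 8.04 to 11.9 after saline (median 8.99). The groups did not overlap, and the log2 fold change was -0.60 ± 0.13 (SE, adjusted p = 0.0931, limma). The C1q chains, which start the classical complement pathway, were at -0.38 (C1qa), -0.41 (C1qb) and -0.39 (C1qc), each with an SE between 0.17 and 0.21.

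Csf1r, the receptor on which microglia depend for survival, ranged from 17.4 to 27.8 RPKM after cocaine (median 23.5) and from 26.5 to 37.3 after saline (median 30.9). The groups overlapped through cocaine library 6, at 27.8, and the log2 fold change was -0.43 ± 0.12 (SE, adjusted p = 0.138, limma). Csf3r, the G-CSF receptor, was at -0.39 ± 0.17. The transcription factors Sall1 and Irf8 were at -0.29 ± 0.10 and -0.35 ± 0.18. Tmem119, a transmembrane protein used as a microglia marker, was at -0.45 ± 0.20, Hpgds, a prostaglandin D synthase, at -0.47 ± 0.14, and Slc2a5, the fructose transporter GLUT5, at -0.39 ± 0.15.

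Olfml3, a secreted matrix protein, was the one member that was not lower. It ranged from 4.76 to 17.7 RPKM after cocaine (median 7.82) and from 5.32 to 7.65 after saline (median 6.82). The 2 highest values were 17.7 in cocaine library 6 and 11.8 in cocaine library 3, and the log2 fold change was 0.38 ± 0.25 (SE, adjusted p = 0.511, limma). With cocaine library 6 left out, 32 of the 33 members were again negative.

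Counted by overlap, 6 of 33 members had all cocaine libraries below all saline libraries in the VTA at 1 day, namely Blnk, Ctss, Cx3cr1, Itgam, Ly86 and Siglech. In the whole table this held for 55 of 15042 genes (0.366%). No member had its cocaine libraries wholly above, which 196 genes (1.3%) did. Outside this comparison 0 members were separated in either direction.

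**Figure D3:**
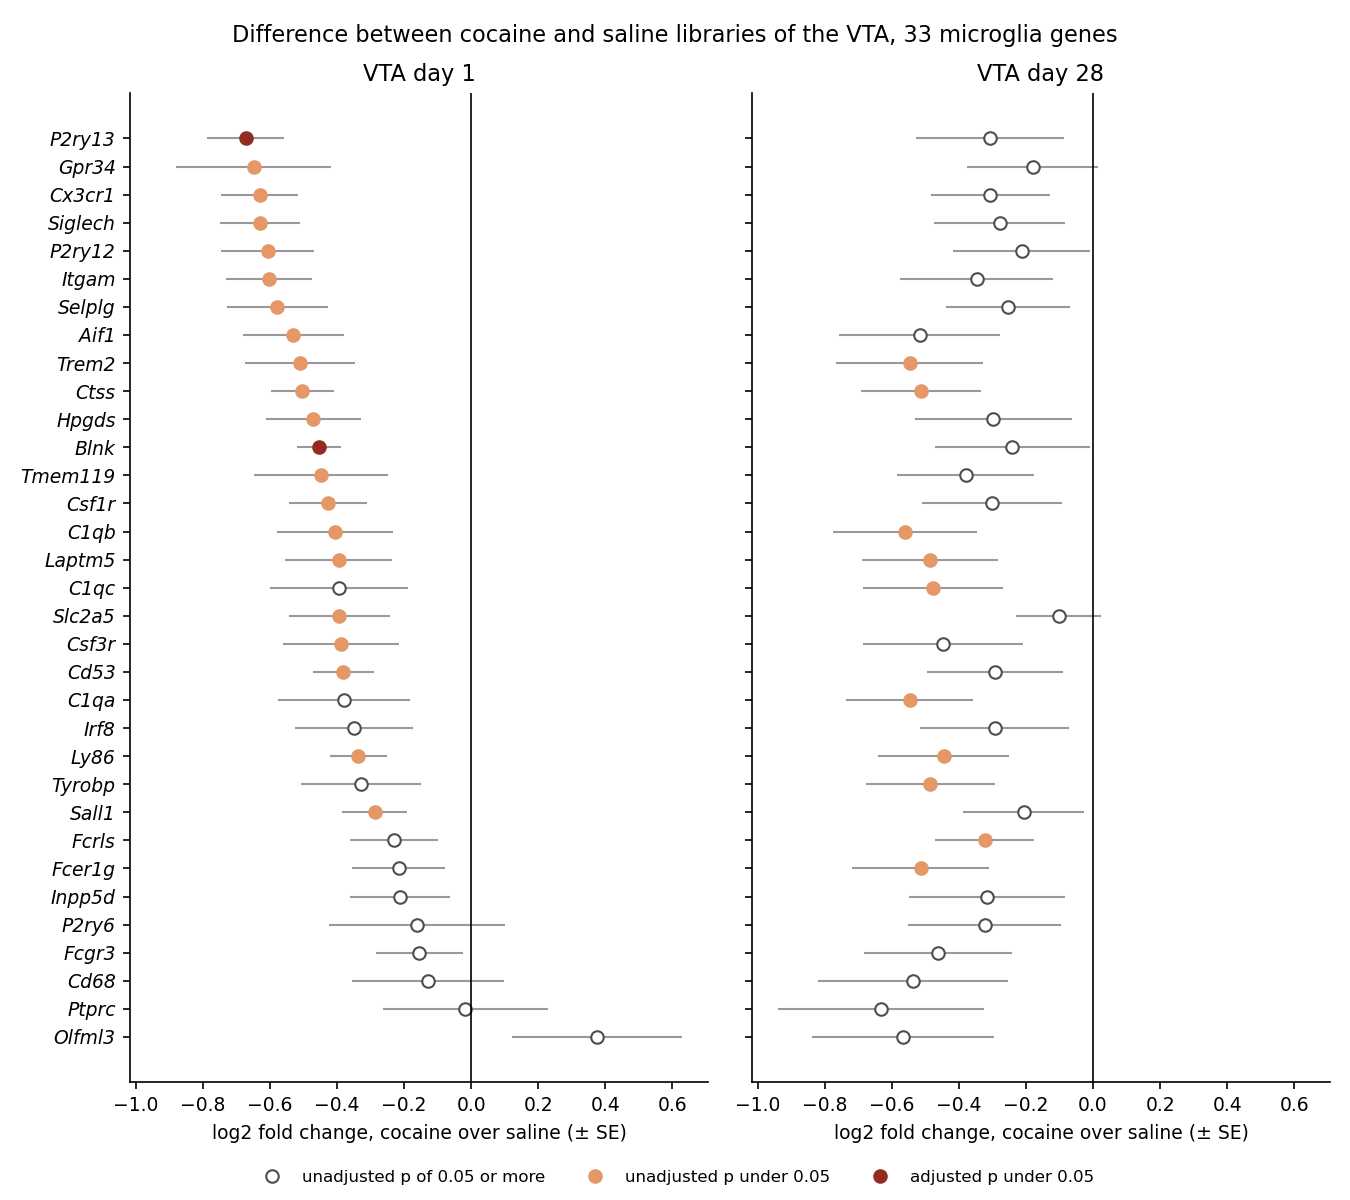
Log2 fold change of cocaine over saline with its SE (horizontal axes) for the 33 genes (vertical axis, ordered by the value at 1 day) in the VTA at 1 day (left) and 28 days (right). At 1 day all but Olfml3 are below 0 and P2ry13 and Blnk pass the adjusted test, and at 28 days all 33 are below 0 and none passes.

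The number of members called depended on the tool. On whole reads recovered from the RPKM values, edgeR called 6 members lower (Ctss, Cx3cr1, P2ry13, Siglech, Blnk and Itgam), beside 27 genes lower in all (0.167%), and DESeq2 called 15, beside 289 (1.79%). With TMM factors in place of the deposited scaling, 1 member was called, beside 2 genes lower in all (0.0133%). The median of all genes then moved from 0.03 to -0.01, while that of the members moved from -0.39 to -0.44. The scaling also changed the balance of the whole table, from 1677 genes higher and 646 lower at an unadjusted p under 0.05 to 1133 higher and 1107 lower. Leaving out 1 library at a time gave between 0 and 4 called members and a median between -0.48 (without cocaine library 6) and -0.30 (without cocaine library 5). The count of 4 was found without cocaine library 1, beside 14 genes lower in all (0.093%). A count of 0 called members was found without cocaine library 2, 3, 4 or 5 and without saline library 1, 2, 4, 5 or 6. In these fits 0 genes of the whole table were called lower, except 1 (0.00664%) without saline library 4.

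Markers of other cell types also differed in level between the same VTA libraries. A list of 10 genes of meninges and fibroblasts, such as the matrix proteoglycans Dcn and Lum, was added after seeing the data. Of these, 10 had a positive log2 fold change at 1 day, with a median of 1.51, and 0 were called. At an unadjusted p under 0.05, 9 were higher, beside 11.1% of all genes. The summed level of the list ranged from 93.4 to 1150 RPKM after cocaine and from 30.3 to 189 after saline. Over all NAc and PFC libraries it ranged from 16.5 to 98.0 RPKM. Border macrophage and monocyte genes had a positive log2 fold change in 8 of 8 tested (median 1.09, 0 called), and their summed level was 17.7 to 141 RPKM after cocaine and 15.1 to 39.1 after saline. Border macrophages also express many of the 33 genes. Their markers Lyve1 and Mrc1 were at 1.62 ± 0.50 and 0.68 ± 0.45 (log2 fold change ± SE).

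Cortical excitatory neuron genes had a positive log2 fold change in 6 of 7 tested (median 1.04, 0 called), and dopamine neuron genes a negative one in 9 of 9 (median -0.56, 0 called). The part of the dopamine neuron and border macrophage levels in the result was not tested. With the mean of the cortical list as a covariate, 33 of 33 members were negative with a median of -0.36, 9 had an unadjusted p under 0.05, beside 3.84% of genes lower at that threshold, and 0 were called, nor was any gene. With the mean of the meningeal list as a covariate, a fit chosen after seeing the data, 33 of 33 were negative with a median of -0.47, 26 had an unadjusted p under 0.05, beside 5.89% of genes lower, and 0 were called, nor was any gene. Cocaine library 5, lowest in the microglia genes, had 93.4 RPKM of the meningeal list, close to saline library 5 with 91.0. Saline library 4, highest in the microglia genes, had 30.3 RPKM, the lowest of these libraries. Cocaine library 6, the cocaine library highest in the microglia genes, had 1150 RPKM, the highest of these libraries.

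**Figure D4:**
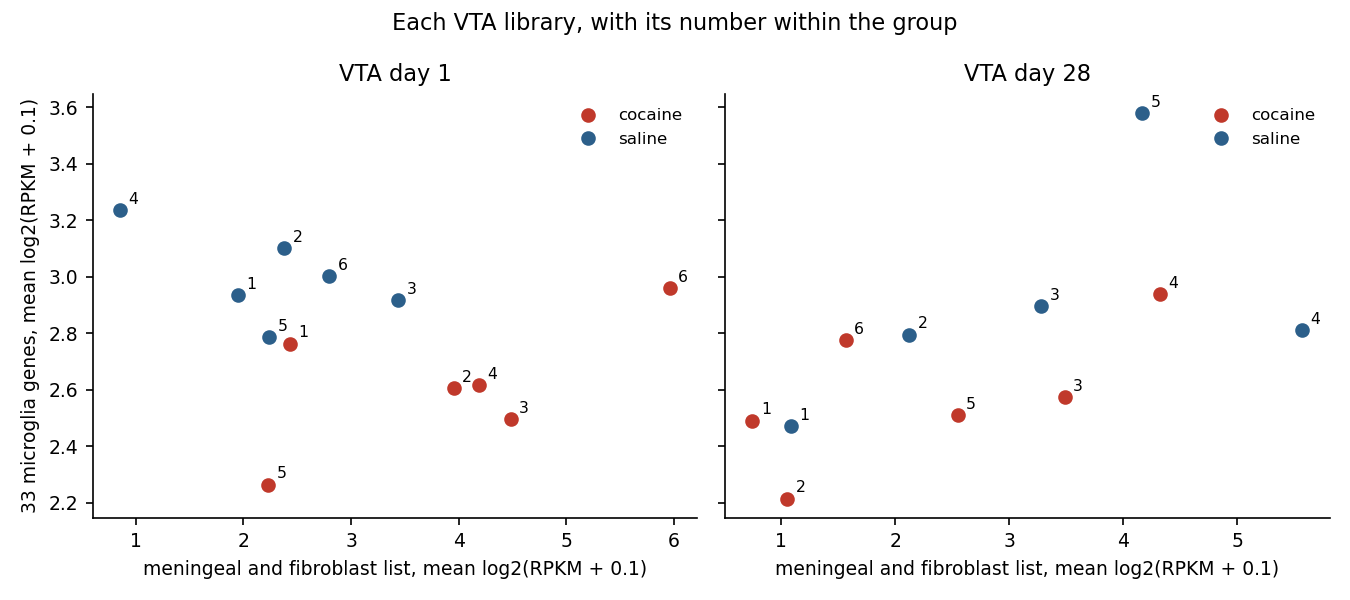
Mean log2(RPKM + 0.1) of the 33 microglia genes (vertical axis) against that of 10 meningeal and fibroblast genes (horizontal axes) in each VTA library at 1 day (left) and 28 days (right), numbered within its group. At 1 day cocaine library 6 is far to the right at 5.96, and at 28 days saline library 5 is the highest in microglia genes at 3.58 and saline library 4 the farthest right at 5.57.

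Microglia also express genes outside the 33. Of 28 such genes tested in the VTA at 1 day, 21 had a negative log2 fold change (median -0.23). At an unadjusted p under 0.05, 8 were lower, beside 4.29% of all genes. Of 11 tested genes linked to disease-associated microglia, 3 were negative (median 0.06) and 0 had an unadjusted p under 0.05. Of 8 complement genes outside C1q, 1 was negative (median 0.77). At an unadjusted p under 0.05, 4 were higher, beside 11.1% of all genes.

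The ligands of these receptors were tested as well. Il34 and Csf1, which bind Csf1r, were at 0.49 ± 0.25 and 0.12 ± 0.19 in the VTA at 1 day, and Cx3cl1, the fractalkine that binds Cx3cr1, was at 0.10 ± 0.08 (log2 fold change ± SE). None of Csf1, Il34, Cx3cl1 and the TGF-beta genes Tgfb1 and Tgfb2 was called by limma, nor was Cd200, which was listed with them. Of these genes Tgfb2, at 0.41 ± 0.14, had an unadjusted p under 0.05. Among inflammatory mediators, 5 of 15 genes were abundant enough to test, of which 2 were negative and 0 were called.

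In the VTA at 28 days, 33 of 33 members had a negative log2 fold change, with a median log2 fold change of -0.35 beside -0.03 over all 16937 genes tested, of which 56.9% were negative. No member was called by edgeR with Benjamini-Hochberg adjustment, nor was any gene in the table (0%), and DESeq2 called 0 members as well, beside 22 genes (0.13%) lower and 52 (0.307%) higher. At an unadjusted p under 0.05, 10 members were lower and 0 higher by edgeR, beside 1082 genes (6.39%) lower and 860 (5.08%) higher, and 14 were lower by DESeq2, beside 1220 genes (7.2%) lower by that tool. No member's groups were separated, beside 0.348% of genes with cocaine wholly below saline and 0.98% wholly above. The mean level was 2.58 ± 0.25 after cocaine (SD, n = 6) and 2.91 ± 0.408 after saline (n = 5), and the groups overlapped.

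C1qa was at 59.0, 45.2, 46.5, 48.5 and 88.3 RPKM in the 5 saline libraries and ranged from 28.9 to 49.2 (median 37.3) after cocaine. Its log2 fold change was -0.55 ± 0.19 (SE, adjusted p = 0.394, edgeR). C1qb was at 54.0, 52.7, 56.4, 53.7 and 108 RPKM after saline and ranged from 32.0 to 58.3 (median 41.0) after cocaine, a log2 fold change of -0.56 ± 0.21 (adjusted p = 0.401, edgeR). For both C1q chains saline library 5 was the highest, and cocaine libraries 4 and 6 reached into the saline range.

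Ctss was at 69.1, 64.5, 67.2, 55.0 and 110 RPKM after saline and ranged from 37.7 to 63.8 (median 50.6) after cocaine, a log2 fold change of -0.51 ± 0.18 (SE, adjusted p = 0.394, edgeR). Saline library 5 held the highest level of 31 of the 33 members, and its mean log2 level of 3.58 was 1.59 times the saline group's mean when put back on the linear scale. Without it the median of the members was -0.15, 30 of 33 were negative and 2 had an unadjusted p under 0.05, beside 3.13% of genes lower. This library and saline library 4 also held more meningeal RNA, 304 and 819 RPKM in sum against 38.1 to 176 in the other saline libraries. Without both libraries, a choice made after seeing the data, the median was -0.12 and 31 of 33 were negative.

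The meningeal list had a negative log2 fold change in 10 of 10 genes at 28 days (median -1.14, 0 called) and the border macrophage list in 11 of 11 (median -0.92, 0 called), where both were positive at 1 day. With the cortical covariate the members' median was -0.10, 24 were negative and 9 positive. No member then had an unadjusted p under 0.05 by edgeR, beside 10.9% of genes lower. With the meningeal covariate the members' median was -0.24 and 33 were negative. Of these, C1qa, C1qb and Ctss alone had an unadjusted p under 0.05, beside 6.94% of genes lower. The further microglia genes were negative in 29 of 29 tested (median -0.40, 0 called), and the disease-associated genes in 13 of 14 (median -0.34, 0 called).

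The size of the difference by role was set side by side for the 2 time points. The purinergic and chemokine receptors had a median of -0.63 at 1 day and -0.31 at 28 days, while C1q and Itgam had -0.40 and -0.51, and the ITAM adaptors and receptors -0.28 and -0.47. The difference between the time points was tested by the interaction of treatment and day, in which day is also the table and the unit. No member was called in the VTA by limma, nor was any of 14699 genes (0%), and 1 member was lower at an unadjusted p under 0.05, beside 8.78% of genes lower and 4.65% higher. That was Olfml3, with an interaction of -0.88 ± 0.39 (log2, SE, adjusted p = 0.347). At 28 days Olfml3 was at 4.29, 5.92, 7.24, 12.1 and 11.1 RPKM after saline and at 3.58 to 8.52 (median 5.36) after cocaine. P2ry12 came next, at 0.48 ± 0.26 (adjusted p = 0.420, limma).

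In the NAc no microglia gene passed the test. At 1 day their median log2 fold change was -0.06, with 26 of 33 negative beside 50.5% of all genes, and at 28 days it was -0.07, with 26 of 33 negative beside 48.0%. No member was called by edgeR or by DESeq2 at either time, beside 2 of 15878 genes (0.0126%) called by edgeR at 1 day and 0 of 16295 (0%) at 28 days. At each time 1 member was lower and 0 higher at an unadjusted p under 0.05 by edgeR, beside 1.25% of genes lower and 2.76% higher at 1 day and 3.42% and 3.34% at 28 days. No member's groups were separated, beside 0.0567% of genes with cocaine wholly below saline and 0.157% wholly above at 1 day and 0.141% and 0.16% at 28 days. At 1 day this was Csf3r, with 1.32 to 1.62 RPKM after cocaine (median 1.5) and 1.5 to 1.93 after saline (median 1.75). Its log2 fold change was -0.21 ± 0.09 (SE, adjusted p = 1.00, edgeR), and the groups overlapped.

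C1qa and C1qb followed in the NAc at 1 day. C1qa ranged from 19.4 to 23.3 RPKM after cocaine (median 22.2) and from 20.9 to 29.5 after saline (median 24.1), and C1qb from 24.4 to 32.1 (median 29.7) and from 26.7 to 36.6 (median 33.6). Their log2 fold changes were -0.14 ± 0.07 and -0.15 ± 0.08 (SE), each with an adjusted p of 1.00 (edgeR).

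At 28 days the member with an unadjusted p under 0.05 was Hpgds, at 1.55 to 2.15 RPKM after cocaine (median 1.85) and 1.86 to 2.51 after saline (median 2.20), a log2 fold change of -0.29 ± 0.10 (SE, adjusted p = 0.630, edgeR). Csf3r was at -0.16 ± 0.08 and Trem2 at -0.13 ± 0.07, with overlapping groups. Csf3r ranged from 1.75 to 2.18 RPKM after cocaine (median 1.87) and from 1.98 to 2.37 after saline (median 2.15). Trem2 ranged from 3.52 to 4.36 RPKM after cocaine (median 3.95) and from 3.79 to 4.63 after saline (median 4.23). In the interaction with day 0 members were called in the NAc by edgeR, beside 3 of 16612 genes (0.0181%), and 0 had an unadjusted p under 0.05, beside 2.53% of genes higher and 2.75% lower. The smallest p were those of Fcrls, an Fc receptor-like protein, at 0.16 ± 0.09, and Fcgr3, at -0.17 ± 0.12 (log2, SE).

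In the PFC the members had a median of -0.06 at 1 day, with 26 of 33 negative beside 54.6% of all genes, and of 0.01 at 28 days, with 15 of 33 negative beside 49.9%. None was called at either time by limma at 1 day or edgeR at 28 days, beside 1 of 14427 genes (0.00693%) at 1 day and 0 of 16340 (0%) at 28 days, and DESeq2 called 0 members at both times. At 1 day 1 member was lower and 0 higher at an unadjusted p under 0.05, beside 2.5% of genes lower and 1.64% higher. No member's groups were separated, beside 0.0762% of genes wholly below saline and 0.0832% wholly above at 1 day and 0.153% and 0.0796% at 28 days. Ptprc had the smallest p at 1 day, with 0.504 to 0.680 RPKM after cocaine (median 0.576) and 0.588 to 0.859 after saline (median 0.705), a log2 fold change of -0.22 ± 0.09 (SE, adjusted p = 0.918, limma). Fcrls ranged from 7.59 to 9.93 RPKM after cocaine (median 9.36) and from 8.59 to 12.3 after saline (median 10.9). Olfml3 ranged from 3.45 to 3.99 RPKM after cocaine (median 3.84) and from 3.36 to 5.00 after saline (median 4.18). All 3 overlapped between groups.

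At 28 days 4 members of the PFC were higher at an unadjusted p under 0.05, beside 440 genes (2.69%), and 0 were lower, beside 2.97%. P2ry12 ranged from 10.4 to 11.7 RPKM after cocaine (median 11.2) and from 8.30 to 11.1 after saline (median 9.87), a log2 fold change of 0.20 ± 0.07 (SE, adjusted p = 0.842, edgeR). Cd53, a tetraspanin of leukocytes, ranged from 1.81 to 2.52 RPKM (median 2.06) and from 1.42 to 2.21 (median 1.62), at 0.28 ± 0.12. Siglech ranged from 6.98 to 8.41 RPKM (median 8.24) and from 6.40 to 7.83 (median 7.28), at 0.15 ± 0.07. All 3 overlapped between groups. In the interaction with day 0 members were called in the PFC by limma, beside 2 of 14119 genes (0.0142%), and 4 were higher at an unadjusted p under 0.05, beside 2.88% of genes higher and 1.67% lower. The 2 smallest p were those of Siglech, at 0.28 ± 0.10, and Hpgds, at 0.30 ± 0.13 (log2, SE).

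The regions were compared in the saline libraries at 28 days, whose 3 count tables were joined in 1 fit, so each region stands in 2 contrasts. The study's methods describe the 3 regions as dissected from the brains of the same cohort, so libraries of different regions may come from the same mouse. The columns could not be tied to mice, and the fit treats the libraries as independent. Region differences were widespread, with 10732 of 17181 genes (62.5%) called between VTA and NAc, 6986 (40.7%) between PFC and NAc and 9939 (57.8%) between VTA and PFC by edgeR. Of the 33 members, 9 were called between VTA and NAc (3 higher, 6 lower), 3 between PFC and NAc (1 higher, 2 lower) and 9 between VTA and PFC (7 higher, 2 lower). The median log2 fold change of the members was -0.08 for VTA over NAc, -0.23 for PFC over NAc and 0.10 for VTA over PFC. The extraction and sequencing of the regions cannot be told apart from the regions. PFC saline library 4 held 1422 RPKM in sum of medium spiny neuron genes, against 102 to 137 in the other PFC saline libraries. Its mean log2 level of the cortical list was 4.62, against 5.11 to 5.18 there. The library is in both PFC contrasts and in the PFC comparison of cocaine with saline at 28 days. It was left out in turn like every library, and its part in the results was not otherwise tested.

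Blnk had the largest log2 fold change of the members between regions. It was at 0.454 to 1.16 RPKM in the saline NAc (median 0.631), at 0.515, 0.404, 0.484, 0.425 and 0.941 in the saline VTA, and at 1.99 to 3.13 in the saline PFC (median 2.35). The PFC did not overlap with either other region. Blnk rose by 1.80 ± 0.22 on the log2 scale (SE) from NAc to PFC, an adjusted p of 4.81e-06, and stood at -2.29 ± 0.24 in VTA over PFC, an adjusted p of 2.62e-07 (edgeR). The ratio of the PFC mean to the VTA mean was 4.45 in saline and 6.16 in cocaine libraries at 28 days, and 3.52 and 5.34 at 1 day, where the 2 tables were normalized separately. No other member was called higher in PFC than in NAc.

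**Figure D5:**
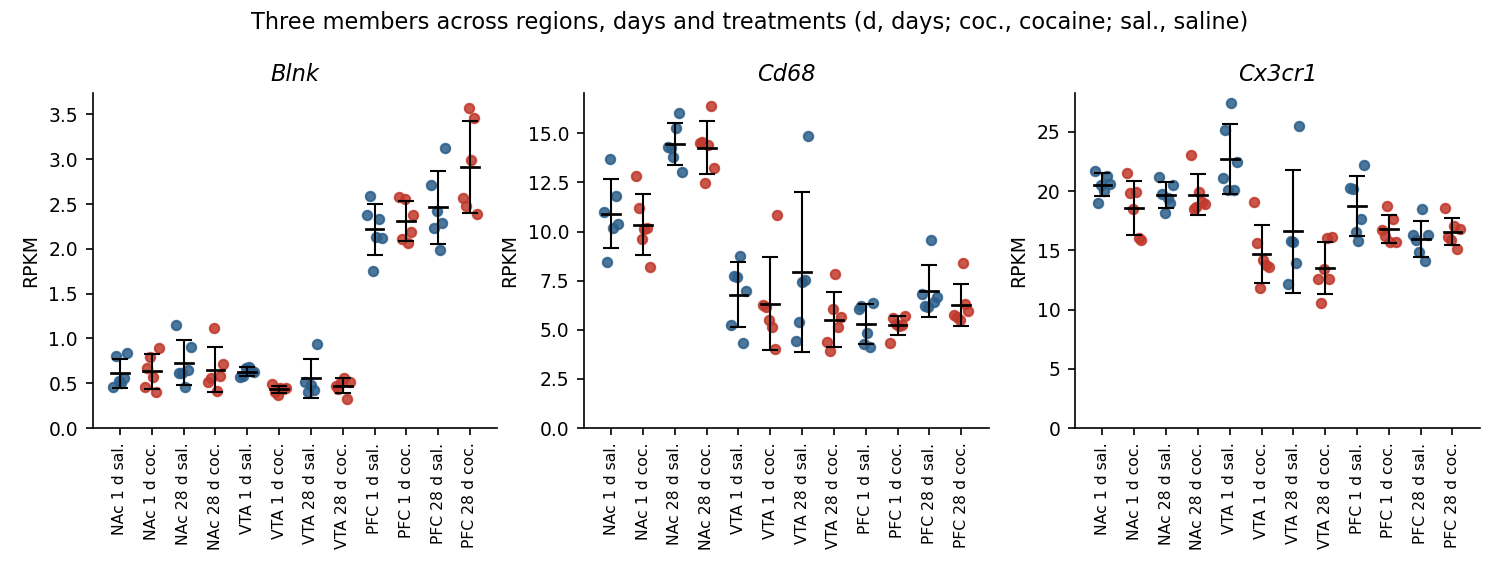
RPKM (vertical axes, from 0) of Blnk, Cd68 and Cx3cr1 in all 12 groups (horizontal axes), with libraries as points and group mean and SD as bars. Blnk is at 1.75 RPKM or more in every PFC library and at 1.16 or less in every other, Cd68 has its highest group means in the NAc, and in Cx3cr1 the ranges of the 3 regions overlap.

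Cd68 was highest in the NAc. It was at 13.05 to 16.0 RPKM in the saline NAc at 28 days (median 14.3), at 4.44, 5.42, 7.43, 7.55 and 14.9 in the saline VTA, and at 6.15 to 9.58 in the saline PFC (median 6.55). NAc and PFC did not overlap, and VTA saline library 5 alone reached the NAc. The log2 fold change was -0.97 ± 0.23 for VTA over NAc (SE, adjusted p = 0.00128) and -1.01 ± 0.22 for PFC over NAc (adjusted p = 0.00103, edgeR). In the cocaine libraries it was -1.45 and -1.13. The ratio of the NAc mean to the PFC mean was 2.07 in saline libraries at 28 days. It was 2.05 at 1 day, where the NAc table held counts and the PFC table RPKM.

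Between VTA and NAc, Inpp5d, the phosphatase SHIP1 that limits PI3K signalling, and Fcrls were lower in the VTA. Inpp5d was at 1.88, 3.14, 2.94, 3.52 and 5.65 RPKM in the VTA and at 4.07 to 5.26 (median 4.67) in the NAc, a log2 fold change of -0.55 ± 0.18 (SE, adjusted p = 0.0133, edgeR). Fcrls was at 8.03, 7.33, 8.28, 8.78 and 12.1 RPKM in the VTA, at 10.5 to 15.1 (median 11.5) in the NAc and at 9.21 to 12.3 (median 10.9) in the PFC. It was at -0.53 ± 0.12 for VTA over NAc (adjusted p = 0.000708) and at -0.43 ± 0.12 for VTA over PFC (adjusted p = 0.00395, edgeR). P2ry12, P2ry13 and Cx3cr1 were also called lower in the VTA than in the NAc, at -0.48, -0.47 and -0.34.

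Ptprc, Olfml3 and Ctss were called higher in the saline VTA than in both other regions. Ptprc was at 0.510, 0.770, 0.894, 1.67 and 1.5 RPKM in the VTA, at 0.451 to 0.679 (median 0.629) in the NAc and at 0.429 to 0.650 (median 0.539) in the PFC. It was at 0.75 ± 0.24 over NAc (SE, adjusted p = 0.0107) and at 0.84 ± 0.24 over PFC (adjusted p = 0.00575, edgeR). Olfml3 was at 0.48 ± 0.20 and 0.61 ± 0.20, and Ctss at 0.40 ± 0.13 and 0.60 ± 0.13. Without VTA saline libraries 4 and 5, which held the most meningeal RNA, Ptprc and Olfml3 were called in neither contrast and Ctss in both. In the cocaine libraries Olfml3 was at -0.15 over NAc and -0.01 over PFC, and Ctss at -0.04 over NAc.

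The cocaine libraries of the same day gave a different split. There 0 members were called higher and 25 lower in VTA than in NAc by edgeR, beside 35% of genes higher and 33.5% lower. Between VTA and PFC, 1 (Sall1) was higher and 16 were lower, beside 33.3% and 31.6%. Without VTA saline library 5 the saline comparison of VTA with NAc called 2 members higher and 18 lower, beside 32.4% of genes higher and 27.9% lower. Without saline libraries 4 and 5 together it called 1 higher (Ctss) and 18 lower, beside 29.4% and 27.5%. Of the 6 members called lower in the saline VTA than in the NAc, Cd68, Inpp5d and Fcrls were also called under each of these settings and with each of the 17 libraries left out in turn. P2ry13 lost its call in 3 of these 17 fits, P2ry12 in 5 and Cx3cr1 in 6, and without VTA saline library 1, 3 or 4 none of these 3 genes was called. Without VTA saline library 4 the comparison called 5 members, 2 higher and 3 lower, beside 31.1% of genes higher and 28.7% lower. Between PFC and NAc, Hpgds, called lower in the saline PFC at -0.49 ± 0.18 (adjusted p = 0.0369, edgeR), was at 0.01 in the cocaine libraries.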

How the data were processed

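RNA-seq was measured in 71 libraries of micro-punched NAc, VTA and PFC. Per the labels and the study's methods, the authors aligned reads to mm9 (Ensembl annotation) with STAR 2.4.1d at default parameters and kept replicates apart. The counter and its strand setting are not given in the sources used here. The authors deposited raw read counts per gene for the NAc at both days and for the VTA and PFC at 28 days, and RPKM by gene length for the VTA and PFC at 1 day. DESeq2 and edgeR are among the tools in the submitters' processing notes. The deposited fold changes and p-values were not used, nor were 30 columns of values that matched no sample.

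Counts were tested with edgeR 4.0.16 (quasi-likelihood, TMM, filterByExpr) and RPKM values with limma 3.58.1 on log2(RPKM + 0.1) for genes with a mean of at least 0.5, both in R 4.3.3 with Benjamini-Hochberg adjustment over all genes tested and an adjusted p under 0.05. A fold change on the log2(RPKM + 0.1) scale understates that of low genes. The test followed the unit that each table held, so limma was used where the tables held RPKM. Count tables were put on the RPKM scale with the gene lengths implied by the RPKM tables. Interactions in the VTA and PFC used limma on the log2 scale, planned with RPKM at 1 day and TMM-scaled CPM at 28 days. RPKM steps gave whole reads, within 0.0001, for 100.0% of detected genes of the VTA and PFC at 1 day, and edgeR and DESeq2 1.42.0 were run on these reads. Libraries held 20971967 to 49700932 reads. The tests were checked on simulated data.

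The members and lists were chosen with earlier results of these data known. Any member could be named. Values in full were given for the 3 members of smallest p in each table (6 for the VTA at 1 day), up to 3 called members of largest fold change in each direction in each region contrast, and 2 in each interaction, and further members were described by role. Alternatives were other filters, scalings, thresholds, pseudocounts, tools, covariates, a replicate block and leaving out each library. The result of 1 gene outside the 33 is not reported here.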

Additional observations from a re-analysis of the deposited data

Results flagged for a closer look

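A single library stood far from the others of its group in 5 of 54 groups of values tested with Dixon's criterion, which flags about 1 in 20 groups by chance. In saline VTA at 28 days, library 5 held 109.9 RPKM of Ctss, where the other 4 ranged from 55.04 to 69.15, and 107.6 RPKM of C1qb, where the others ranged from 52.72 to 56.43. Both come from the same library, which also held 304 RPKM of the meningeal list, and the part of this in its level was not tested. In cocaine PFC at 1 day, library 4 had 7.587 RPKM of Fcrls against 9.276 to 9.926 in the others. In cocaine PFC at 28 days, library 3 had 6.982 RPKM of Siglech against 7.882 to 8.415. In cocaine NAc at 28 days, library 1 had a mean log2 level of the 33 genes of 3.083 against 2.869 to 2.916.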

How the results depend on the processing

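In the VTA at 1 day the count of called members, 2 by limma, was 16 at an adjusted p under 0.25, beside 2.32% of genes lower at that threshold. It was 1 with a pseudocount of 1 and 1 with TMM factors, each beside 0.0133% of genes lower. On recovered reads it was 6 with edgeR (0.167% of genes lower) and 15 with DESeq2 (1.79%). It was 0 with no filter on low values, 0 with the cortical covariate and 0 with the meningeal one, each beside 0 genes lower. Leaving out each library gave 0 to 4. The fits with 0 called members had 0 genes called lower, except 1 gene without saline library 4. The cause of these differences was not tested. Between VTA and NAc the count of 9 became 4 with a minimum fold (0.5 on the log2 scale), beside 23.3% of genes higher and 19% lower. It was 25 in the cocaine libraries (35% and 33.5% of genes) and 19 without VTA saline libraries 4 and 5 (29.4% and 27.5%). Leaving out each library gave 5 to 20. The 5 came without VTA saline library 4 (31.1% and 28.7%) and the 20 without library 5 (32.4% and 27.9%). Between PFC and NAc the count of 3 became 5 in the cocaine libraries, beside 26.5% of genes higher and 26.9% lower. Leaving out each library gave 2 to 14. The 14 came without VTA saline library 5, beside 21.4% of genes higher and 20.2% lower. That library is of neither region but shares the fit, and the cause was not tested. Between VTA and PFC the count of 9 became 5 with the fold minimum, beside 21.4% of genes higher and 17.1% lower. It was 17 in the cocaine libraries (33.3% and 31.6% of genes). Leaving out each library gave 8 to 14, the 14 without VTA saline library 5 (29.2% and 26.3%). In the cocaine libraries 4 log2 fold changes reversed, those of Olfml3 (-0.149) and Ctss (-0.0419) for VTA over NAc, Hpgds (0.0123) for PFC over NAc and Olfml3 (-0.0059) for VTA over PFC. Leaving out each library moved the members' median from -0.09 to -0.03 (NAc, 1 day), -0.10 to -0.04 (NAc, 28 days), -0.09 to 0.00 (PFC, 1 day), -0.01 to 0.06 (PFC, 28 days), -0.48 to -0.30 (VTA, 1 day) and -0.48 to -0.15 (VTA, 28 days). In the treatment comparisons of NAc, PFC and the VTA at 28 days and in the interactions, 0 members were called under each setting run.

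With the replicate number as a block, 3 members were called in the VTA at 1 day (P2ry13, P2ry12 and Ctss, not Blnk), beside 0.0332% of genes lower and 0.0532% higher, and 0 in the NAc and PFC at 1 day. Correlations of same-numbered libraries ran from -0.49 to 0.59 (NAc), from -0.27 to 0.45 (VTA) and from -0.16 to 0.07 (PFC). The best-correlated saline library had the same number only for cocaine libraries 6 of the NAc and 5 and 6 of the VTA. The labels give a number only, and whether it marks a pair cannot be told from these values. At 28 days no paired analysis was possible because the columns could be tied to a group and not to a numbered sample. Depth limits Blnk most among the called members, at 40 to 83 reads in the VTA at 1 day.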

Other observations

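Other cell type lists were measured in the same VTA libraries. Myelin and oligodendrocyte genes had a negative log2 fold change in 12 of 12 at 1 day (median -0.19) and in 12 of 12 at 28 days (median -0.39), with 0 called at either time. Endothelial genes were positive in 8 of 8 at 1 day (median 0.29) and negative in 8 of 8 at 28 days (median -0.46), again with 0 called. Astrocyte genes were negative in 9 of 12 at 1 day (median -0.16) and in 6 of 12 at 28 days (median 0.00). Complement genes outside C1q had a median of 0.77 at 1 day and -0.91 at 28 days, with 0 called.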
